A study of Mus musculus with 10 samples.

Results

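Receptors and ligands of the Eph and ephrin family, 10 genes in all, were followed through the developing lower incisor: the receptors *Epha3*, *Epha4*, *Epha7*, *Ephb2*, *Ephb3* and *Ephb4*, and the ligands *Efna1*, *Efna5*, *Efnb1* and *Efnb2*. They were chosen by symbol as 10 of the 32285 genes in the count matrices, and each symbol had 1 entry. The cells came from wild type mice of the NMRI stock: whole mandibles at E11.5, when the tooth starts to form, and lower incisor tooth buds, dissected free, at the later stages E14.5 and E16.5. No treatment or genetic change was used, and the stages therefore differ in dissection as well as in age. The labels name 4, 4 and 2 samples at the successive stages, but every stage was deposited as 1 matrix whose barcodes carry no sample, so there were no replicates and no p-value could be computed. By the study's methods, the embryos of a stage came from more than 1 litter. The matrix of a stage was taken to join them, which its barcodes cannot show. Intervals below are 95% intervals and cover counting error only.

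Eph receptors are tyrosine kinases of the cell surface, and ephrins are their ligands, held on the membrane of the neighbouring cell. A-type ephrins are anchored by a lipid and mostly bind EphA receptors, and B-type ephrins span the membrane and mostly bind EphB receptors, with *Epha4* known as a receptor that takes ligands of both types. Contact between them signals into both cells and is known for sorting cells into compartments, for guiding axons and neural crest, and for separating arteries, which carry ephrin-B2, from veins, which carry EphB4.

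A few of the genes carry most of the results: *Efnb2* and *Efna1*, ligands that were highest in endothelium among the lineages compared, and *Epha3*, the receptor that was low in both epithelium and endothelium. Their promoters are shown as the 250 bases before the RefSeq start on GRCm38.p6, each on the minus strand, at chr8:8661243-8661492 for *Efnb2*, chr3:89280952-89281201 for *Efna1* and chr16:63864176-63864425 for *Epha3*. Capitals mark the GC box letters GGGCGG read on either strand.
Efnb2: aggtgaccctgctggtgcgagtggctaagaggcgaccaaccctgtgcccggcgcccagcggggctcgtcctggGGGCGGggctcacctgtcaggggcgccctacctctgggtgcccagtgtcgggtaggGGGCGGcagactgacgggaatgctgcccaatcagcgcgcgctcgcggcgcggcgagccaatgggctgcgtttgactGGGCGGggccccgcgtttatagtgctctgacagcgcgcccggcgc
Efna1: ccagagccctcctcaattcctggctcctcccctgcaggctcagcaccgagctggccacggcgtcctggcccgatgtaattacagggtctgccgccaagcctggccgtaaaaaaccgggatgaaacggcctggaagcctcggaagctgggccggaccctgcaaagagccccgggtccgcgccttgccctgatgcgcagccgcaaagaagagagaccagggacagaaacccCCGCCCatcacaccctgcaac
Epha3: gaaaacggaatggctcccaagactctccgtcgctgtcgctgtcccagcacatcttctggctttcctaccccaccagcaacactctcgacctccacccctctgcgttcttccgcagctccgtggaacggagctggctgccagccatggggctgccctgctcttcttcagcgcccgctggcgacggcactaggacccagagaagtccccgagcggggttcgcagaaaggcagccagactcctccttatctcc
The GC box letters occurred 3 times before *Efnb2*, 1 time before *Efna1* and not at all before *Epha3*, and 32.7% of 32817 mouse promoters of this length held them. The *Efnb2* window had 27 CG pairs and a GC content of 72%, the *Efna1* window 16 pairs and 64.8%, and the *Epha3* window 16 pairs and 62.8%. The median of all promoters was 6 CG pairs. These counts describe the windows and say nothing of binding. In the GENCODE annotation *Efna1* starts at chr3:89281142, so a large part of its window lies within that gene. The windows of *Efnb2* and *Epha3* lie outside their genes.

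Cells were kept with 700 or more genes and no more than 20% of UMIs from mitochondrial genes, a UMI being the tag that lets each RNA molecule be counted once. This left 6573 of 8708 barcodes at E11.5, 6091 of 8192 at E14.5 and 4511 of 5719 at E16.5, with 864 to 123785 UMIs per cell. A cell was given a lineage when it had UMIs of at least 3 of the 10 markers of that lineage and of at least 2 more than for any other. This placed 5183, 4071 and 2367 cells in mesenchyme at the successive stages, 583 and 1427 in epithelium at E14.5 and E16.5, and 67, 163 and 122 in endothelium. Only 10 cells were called epithelium at E11.5, too few for a comparison. No lineage was given to 1096, 1108 and 545 cells, and 989, 1219 and 598 of the called cells sat at the limit of the rule. Barcodes shared between stages numbered 13 to 17 per pair of stages. Levels are CPM, a gene's summed count in a group of cells over the group's summed UMIs, scaled to counts per 1e6. Because the libraries read the 3' end of each molecule, a level follows molecules and not transcript length, and levels are compared between cells and not between genes.

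Free RNA gives stray UMIs in droplets, and 4 groups that should lack most of these genes, the immune cells of the 3 stages and the erythroid cells of E11.5, served as the background. Over these 321 cells the highest level in any group was 7.61 CPM for *Epha3*, 26.4 for *Epha4*, 13.9 for *Epha7*, 4.17 for *Ephb2*, 2.17 for *Ephb3*, 11.1 for *Ephb4*, 2.17 for *Efna1*, 13.1 for *Efna5*, 16.3 for *Efnb1* and 13.9 for *Efnb2*. The levels of *Epha3* in epithelium, 4.45 and 2.86 CPM at E14.5 and E16.5, and those of *Epha3*, *Epha4*, *Epha7*, *Efna5* and *Efnb1* in endothelium, which reached at most 13.6 CPM, were at or below these values and were read as background. The same held for *Ephb2* and *Ephb3* in endothelium and for *Efna1* in mesenchyme at E11.5 (1.33 CPM). These highest values were taken over the 3 stages, and one can come from another stage than the level set against it. *Ephb4* in mesenchyme at E14.5 (9.90 CPM) lay below the highest value but above the immune cluster of its own stage, 1.01 CPM (0.0255 to 5.60). It was therefore not read as background. For *Epha4* in endothelium at E14.5 (13.6 CPM), the immune cluster of that stage had 11.1 CPM (5.52 to 19.8). The other levels were not set against their own stage. The reading as background holds for the called endothelial cells only. In the endothelial cluster of E11.5 (198 cells) *Epha4* had 46.6 CPM (34.3 to 62.0), above the highest background value. *Epha7* had 17.9 CPM (10.6 to 28.2) there and 20.8 (12.3 to 32.9) in the endothelial cluster of E14.5, with intervals that reached below 13.9. Markers of other lineages were present in each group: the 10 mesenchymal markers summed to 154 CPM in epithelium at E14.5 (9 of 10 with a UMI) and 169 at E16.5 (10 of 10), against 3178 and 3274 in mesenchyme, and to 79.7, 208 and 106 CPM in endothelium (9 of 10 at each stage). The 10 epithelial markers summed to 4.56, 49.1 and 112 CPM in mesenchyme, with 10 of 10 detected. Their part in the differences below was not tested.

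At E16.5 the mesenchyme had the highest level of 4 members (*Epha3*, *Epha7*, *Ephb2* and *Efnb1*), the epithelium of 3 (*Epha4*, *Efna5* and *Ephb3*) and the endothelium of 3 (*Efna1*, *Efnb2* and *Ephb4*), and only for *Ephb3* did the interval overlap that of the next lineage. At E14.5 the highest lineage was the same for 9 members, and *Ephb3* was highest in mesenchyme, again with overlapping intervals. At E11.5, with only mesenchyme and endothelium compared, 7 members were higher in mesenchyme with intervals apart, *Efna1* and *Efnb2* were higher in endothelium, and *Ephb4* overlapped between them.

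**Figure D1:**
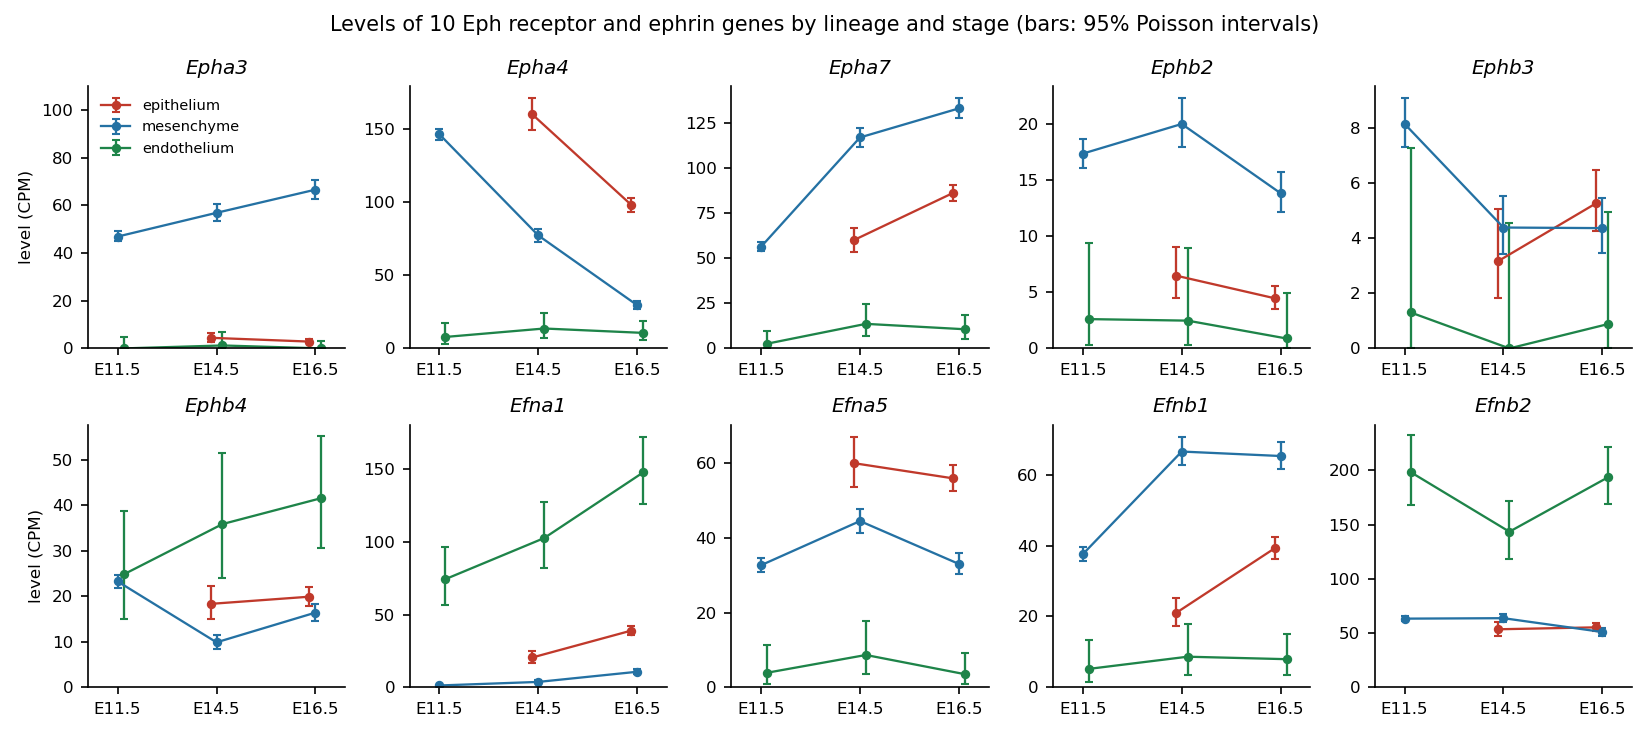
Level of each gene (CPM, linear axis from 0) by stage in epithelium (red), mesenchyme (blue) and endothelium (green), with 95% Poisson intervals; lines join the stages of a lineage. *Epha4* lies at 146, 77.3 and 29.6 CPM in mesenchyme, *Epha3* stays near 0 outside mesenchyme, and *Efna1* and *Efnb2* are highest in endothelium.

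*Epha4*, the receptor for ligands of both types, had 146 CPM in mesenchyme at E11.5 (interval 143 to 150), 77.3 at E14.5 (73.1 to 81.6) and 29.6 at E16.5 (27.1 to 32.2). Each step lay outside the intervals of the stage before. In epithelium the level was 160 CPM at E14.5 (150 to 171) and 98.2 at E16.5 (93.6 to 103), above mesenchyme at both stages. To compare shares at equal depth, cells were thinned to 2000 UMIs, which left out the shallower ones: 332, 455 and 28 mesenchymal cells at the successive stages, and 28 and 61 epithelial cells at E14.5 and E16.5. Of the 4851, 3616 and 2339 mesenchymal cells thinned, 23.6%, 13.2% and 4.92% had an *Epha4* UMI, and of the 555 and 1366 epithelial cells 23.1% and 14.9%. Before thinning the shares were 50.5%, 23.0% and 14.4% in mesenchyme and 53.3% and 42.0% in epithelium, and in the 297 background cells thinned the share was 2.36%.

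*Epha7*, a receptor for A-type ephrins, had 56.4 CPM in mesenchyme at E11.5 (54.1 to 58.7), 117 at E14.5 (112 to 122) and 133 at E16.5 (128 to 138). Its order over the stages was thus the reverse of that of *Epha4*. In epithelium it had 60.1 CPM at E14.5 (53.7 to 67.0) and 86.1 at E16.5 (81.8 to 90.6), below mesenchyme at both. *Epha3*, a further receptor for A-type ephrins, had 46.9, 56.8 and 66.6 CPM in mesenchyme. It had 0 counts in the 67 endothelial cells of E11.5 and in the 122 of E16.5, so that against a floor of 3 counts in the endothelial group the mesenchymal level was at least 11.97-fold higher at E11.5 and at least 25.1-fold higher at E16.5. The bound at E11.5 does not hold for the 198 cells of the endothelial cluster of that stage, which had 8 counts, or 7.94 CPM (3.43 to 15.6), and with lineages taken from clusters the log2 ratio to mesenchyme was -1.66 in place of -2.51.

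Of the EphB receptors, *Ephb2* had 17.4, 19.99 and 13.8 CPM in mesenchyme, and 6.49 and 4.47 in epithelium at E14.5 and E16.5. *Ephb3* was between 0.885 and 8.14 CPM in mesenchyme, epithelium and endothelium wherever it had a count, and had 0 counts in endothelium at E14.5. *Ephb4*, the receptor of venous endothelium and of some epithelia, had 24.8, 35.9 and 41.6 CPM in endothelium, 23.3, 9.90 and 16.4 in mesenchyme, and 18.4 and 19.9 in epithelium at E14.5 and E16.5. Its intervals in endothelium were wide (14.9 to 38.7, 24.0 to 51.5 and 30.6 to 55.3) and overlapped between stages.

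Among the ligands, *Efna5* had 32.6, 44.4 and 33.0 CPM in mesenchyme, and 59.9 and 55.8 in epithelium at E14.5 and E16.5. *Efnb1*, the X-linked B-type ligand, had 37.6, 66.5 and 65.3 CPM in mesenchyme, and 21.0 and 39.2 in epithelium at E14.5 and E16.5. The Y-linked gene *Ddx3y* had 0, 588 and 720 UMIs at the successive stages, so the makeup of the matrices by sex differed, and its part in the *Efnb1* values was not tested. *Efnb2* had 63.4, 63.8 and 51.1 CPM in mesenchyme, 53.6 and 55.4 in epithelium at E14.5 and E16.5, and 199, 144 and 194 in endothelium. *Efna1* had 1.33, 3.78 and 10.8 CPM in mesenchyme, 20.6 and 39.1 in epithelium at E14.5 and E16.5, and 74.4, 103 and 148 in endothelium, so that endothelium was above mesenchyme at every stage, and epithelium lay between them at E14.5 and E16.5, with intervals apart.

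The ligands and receptors of the tissues that build the tooth were compared as log2 ratios of epithelium over mesenchyme, with 10 CPM added to both sides. A gene was called at a 2-fold ratio (log2 of 1 or more in size) if it had at least 50 counts over both groups, and this rule stands in place of a test here. At E14.5, 1 of 10 members was called higher in epithelium, where 3.78% of 11274 genes were, and 2 were called lower, where 4.24% of genes were. *Efna1* was the higher member (20.6 against 3.78 CPM, log2 ratio 1.15, interval 0.95 to 1.33), and *Epha3* (4.45 against 56.8 CPM, -2.21, -2.39 to -2.0) and *Efnb1* (21.0 against 66.5 CPM, -1.31, -1.50 to -1.11) were the lower ones. *Epha4* missed the 2-fold limit at 0.96 (0.85 to 1.08). With cells thinned to 2000 UMIs, *Efna1* (0.86) and *Efnb1* (-0.91) also fell short of it. The median log2 ratio of the members was -0.17, against 0.01 over all genes tested.

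At E16.5, 2 members were called higher in epithelium, where 3.55% of genes were, and 1 lower, where 4.44% were. *Epha4* had 98.2 against 29.6 CPM (1.45, 1.34 to 1.56) and *Efna1* 39.1 against 10.8 CPM (1.24, 1.1 to 1.38). *Epha3* had 2.86 against 66.6 CPM (-2.57, -2.67 to -2.46). *Efnb1* no longer passed the limit, at -0.61 (-0.73 to -0.50), and the intervals of its E14.5 and E16.5 ratios did not overlap, although the difference between the stages was not tested. The ratio of *Epha4* was likewise farther from 0 at E16.5 than at E14.5 with intervals apart. *Efnb2* was near 0 at both stages, at -0.22 (-0.38 to -0.05) and 0.10 (-0.01 to 0.21). The members' median was 0.09 and that of all genes 0.04. With 1 CPM added, the ratios of *Epha3* were -3.41 and -4.13 and those of *Efna1* 2.17 and 1.77 at E14.5 and E16.5.

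**Figure D2:**
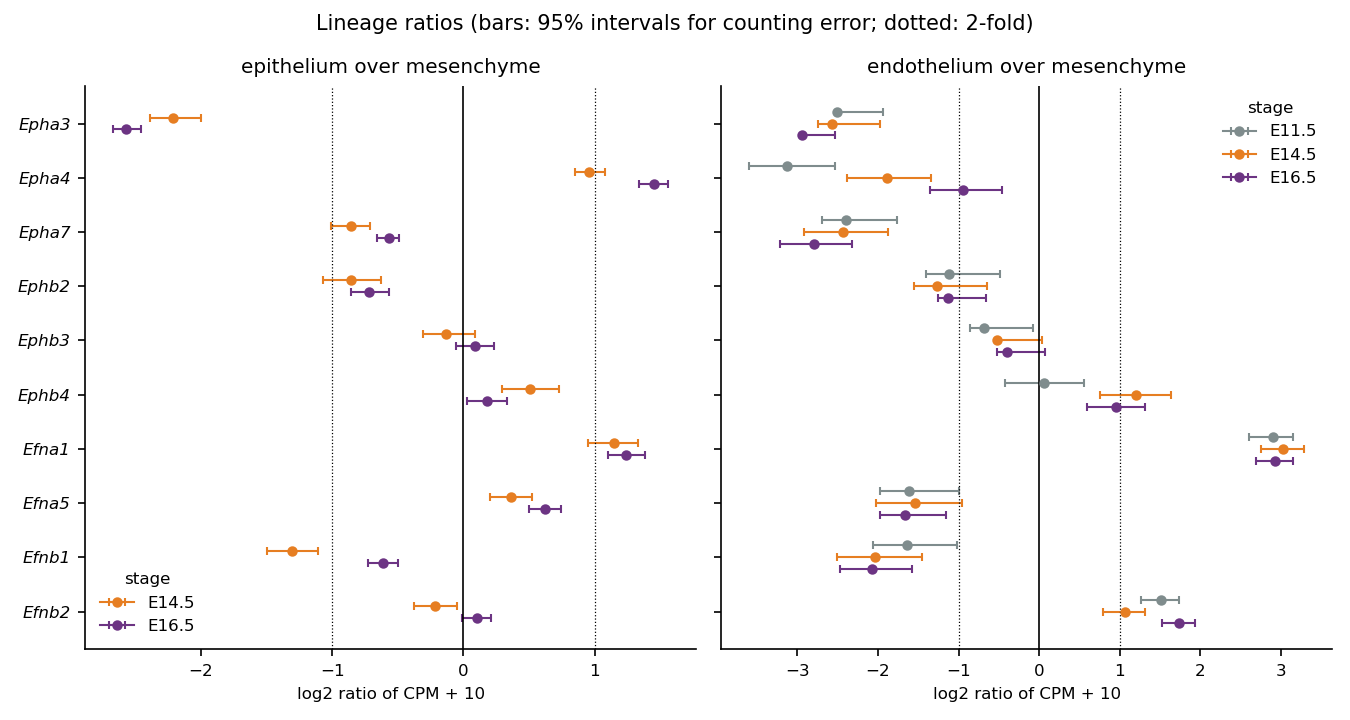
Log2 ratios of epithelium over mesenchyme (left) and endothelium over mesenchyme (right) for each gene, on CPM with 10 added; colours mark the stage, bars are 95% intervals for counting error, and dotted lines mark 2-fold. *Epha3* lies left of the 2-fold line in every comparison, and *Efna1* right of it in each.

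Endothelium was next compared with mesenchyme in the same way. Over mesenchyme, 2 members were called higher at E11.5 (6.96% of all genes), 3 at E14.5 (6.21%) and 2 at E16.5 (6.05%). *Efna1*, an A-type ligand known from endothelial cells exposed to inflammatory signals, had log2 ratios of 2.90 (2.60 to 3.15), 3.03 (2.75 to 3.29) and 2.93 (2.69 to 3.15) at the successive stages. These depend on the 10 CPM added to low mesenchymal levels, and with 1 CPM added they were 5.02, 4.44 and 3.66. *Efnb2* had 1.51 (1.27 to 1.73), 1.06 (0.79 to 1.32) and 1.74 (1.53 to 1.94). *Ephb4* passed the limit at E14.5 (1.20, 0.76 to 1.64), had 0.96 (0.60 to 1.32) at E16.5 and 0.06 (-0.42 to 0.56) at E11.5. Called lower were 6 members at E11.5 and at E14.5 (*Epha3*, *Epha4*, *Epha7*, *Ephb2*, *Efna5* and *Efnb1*), where 5.76% and 6.30% of genes were, and the same members without *Epha4* at E16.5, where 7.27% were. In the order named, the 6 had 0, 6, 2, 2, 3 and 4 endothelial counts at E11.5, and 1, 11, 11, 2, 7 and 7 at E14.5. They thus met the count limit through mesenchyme, the larger group. At E11.5 *Ephb2* (-1.12) rested on 2 endothelial counts and had -0.38 in thinned cells, and with lineages taken from clusters *Ephb2* (-0.76), *Efna5* (-0.90) and *Efnb1* (-0.98) fell short of the limit. *Epha4* at E16.5 had -0.94 (-1.36 to -0.46), with 29.6 CPM in mesenchyme. The members' medians were -1.37, -1.41 and -1.03, against -0.13, -0.11 and -0.12 over all genes tested. Genes high in mesenchyme met the count limit more easily. These medians and the shares called lower are therefore not read as a result about the members. Here and in the other comparisons, the genes tested were not matched to the members in level, and the 10 CPM added draws the ratios of low genes toward 0.

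Endothelial cells were split by arterial and venous marker lists that hold none of the family genes. The arterial list was *Gja5*, *Dll4*, *Hey1*, *Sox17*, *Cxcr4*, *Bmx*, *Jag1* and *Nrp1*. The venous list was *Nr2f2*, *Nrp2*, *Aplnr*, *Flt4*, *Ackr1*, *Lyve1*, *Stab1* and *Vwf*. A cell needed at least 1 marker of its list and more of them than of the other. Whether the groups hold other kinds of vessel was not tested. Venous cells were deeper, with medians of 7764, 4224 and 7102 UMIs against 5177, 2553 and 4963. With the stages summed, 79 arterial and 199 venous cells were compared, and 3 members had enough counts. *Efna1* had 260 CPM in arterial and 78.0 in venous cells (log2 ratio 1.62, 1.27 to 1.96), and *Efnb2*, the textbook arterial ligand, 383 and 133 CPM (1.46, 1.18 to 1.74). Both were called higher, where 1.92% of 5261 genes were. *Ephb4*, the textbook venous receptor, had 28.2 CPM in arterial cells from 12 counts and 34.8 in venous cells from 62 counts, and its log2 ratio of -0.23 had an interval of -0.94 to 0.47, so that a difference of close to 2-fold in favour of venous cells was within what these counts allow. By stage, the arterial groups held 12, 43 and 24 cells and the venous groups 47, 80 and 72. Each arterial group and the venous group of E11.5 were below the 50 cells asked of a group elsewhere. The intervals do not cover spread between cells. *Efnb2* had 344, 334 and 454 CPM in arterial and 159, 103 and 129 in venous cells, with intervals apart at every stage. *Efna1* had 122, 237 and 368 CPM in arterial and 64.1, 60.7 and 99.4 in venous cells, with intervals apart at E14.5 and E16.5 and overlapping at E11.5, where 12 arterial cells were called.

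**Figure D3:**
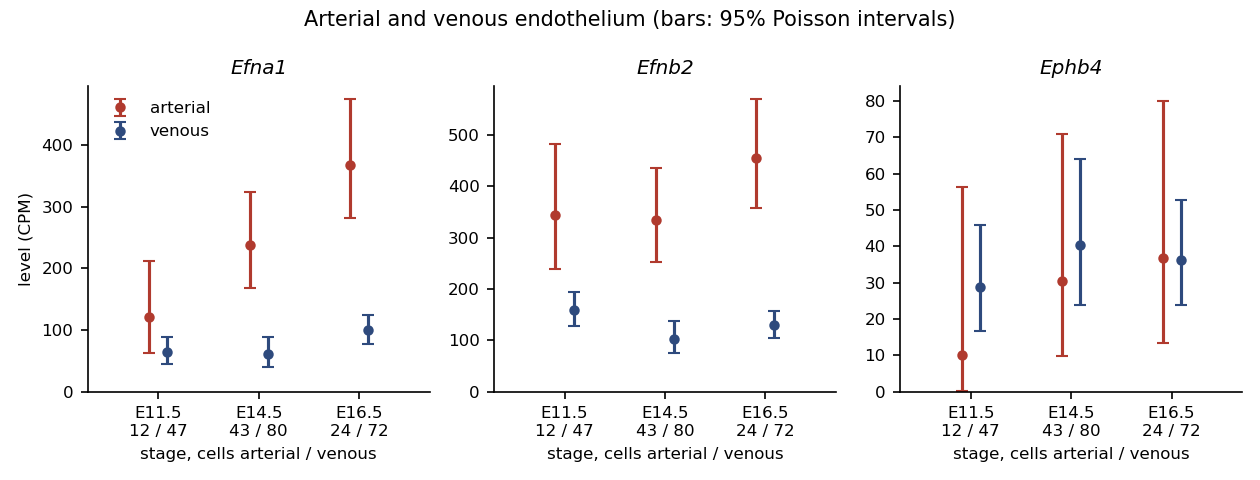
Level (CPM, linear axis from 0) of *Efna1*, *Efnb2* and *Ephb4* in arterial (red) and venous (blue) endothelial cells of each stage, with 95% Poisson intervals and the numbers of cells under each stage. *Efnb2* is higher in arterial cells with intervals apart at every stage, and the intervals of *Ephb4* overlap at every stage.

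Within mesenchyme the stages were compared next. Between E11.5 and E14.5, which also differ in the tissue dissected, none of the 10 members passed 2-fold in either direction, where 2.82% of 12682 genes were called higher and 1.91% lower. The largest ratios in size were those of *Epha7* (0.94, 0.86 to 1.01), *Epha4* (-0.84, -0.92 to -0.76), *Ephb4* (-0.74, -0.87 to -0.61) and *Efnb1* (0.69, 0.59 to 0.78), and *Efnb2* had 0.01 (-0.08 to 0.10). Median of ratios size factors, another scaling, differed from the UMI totals by a log2 of -0.21 in this comparison. They put *Epha7* at 1.12 and *Efnb2* at 0.19, and gave 445 genes called higher and 154 lower, against 357 and 242 on CPM.

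Between E14.5 and E16.5, *Epha4* fell in mesenchyme (77.3 to 29.6 CPM, log2 ratio -1.14, -1.26 to -1.02). It was the only member called, where 0.388% of 12115 genes were called lower and 1.23% higher. The other ratios ran from -0.34 for *Efna5* (-0.47 to -0.22) to 0.59 for *Efna1* (0.44 to 0.73), and those of *Epha3* (0.20) and *Epha7* (0.17) were 0.06 and 0.02 with median of ratios size factors. Those factors differed from the totals by 0.16 on the log2 scale here, and gave 113 genes higher and 63 lower in place of 149 and 47. In epithelium no member was called between E14.5 and E16.5, where 1.20% of genes were higher and 0.324% lower. The ratios farthest from 0 were *Efna1* at 0.68 (0.48 to 0.89), *Efnb1* at 0.67 (0.46 to 0.87) and *Epha4* at -0.65 (-0.76 to -0.54). The size factors differed by 0.17 and gave 105 genes higher and 53 lower here, against 137 and 37. In endothelium only *Ephb4*, *Efna1* and *Efnb2* had enough counts, with ratios of 0.17 (-0.39 to 0.73), 0.49 (0.13 to 0.85) and 0.41 (0.10 to 0.72), and none was called, where 0.738% of genes were higher and 0.295% lower.

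The mesenchyme was not uniform in these genes. Cells with markers of an osteogenic list (613 at E14.5, 464 at E16.5) were compared with cells of a dental papilla list (1100 and 1056). *Epha3* had 118 against 32.0 CPM at E14.5 (1.61, 1.38 to 1.83) and 183 against 24.1 CPM at E16.5 (2.50, 2.33 to 2.68). It was the only member called at either stage, where 1.57% and 1.11% of genes were higher and 0.598% and 0.627% lower. *Epha7* lay on the papilla side at both stages, with 90.4 against 137 CPM (-0.55, -0.75 to -0.36) and 89.6 against 159 CPM (-0.76, -0.92 to -0.60). *Epha4* had ratios of 0.45 (0.22 to 0.67) and 0.79 (0.56 to 1.01). The signs for *Epha3* and *Epha7* were thus opposite at both stages, with *Epha7* short of the 2-fold limit.

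At E11.5, 2584 cells with proximal mandible markers and 470 with distal markers were compared. *Epha3* had 51.1 CPM in proximal and 18.4 in distal cells (1.11, 0.89 to 1.32; 0.86 in thinned cells, short of the limit) and was the 1 member called of 9 tested, where 0.284% of 11248 genes were called higher and 0.400% lower. *Epha4* had 157 and 165 CPM (-0.07, -0.17 to 0.04) and *Epha7* 55.1 and 68.0 (-0.26, -0.42 to -0.10).

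Clusters of all cells, made without the 22 genes of the family, gave a finer view and are described without a call. At E11.5 the cluster led by *3110099E03Rik*, *Emx2* and *Dclk1* (1430 cells) had 89.3 CPM of *Epha3* and 71.0 of *Epha4*, and the cluster led by *Plagl1*, *Foxf1* and *Cited1* (568 cells) had 62.7 and 255. The cluster led by *Pax3* and *Msx1* (1305 cells) had 13.8 CPM of *Epha3* and 145 of *Epha4*. At E14.5 *Epha3* was highest in the cluster led by *Ibsp* and *Sfrp4* (134 CPM, 123 to 146) and lowest among mesenchymal clusters in the one led by *Crym* and *Fgf3* (18.0 CPM, 14.52 to 22.0), whose interval overlapped that of the cluster led by *Osr1* and *Ebf2* (20.8 CPM, 14.02 to 29.7). At E16.5 the cluster led by *Sfrp4* and *Pdzrn4* had 177 CPM of *Epha3* (162 to 192), 71.6 of *Epha4* and 92.8 of *Efnb2*. The cluster led by *Col8a1* and *Smoc2* had 20.6 CPM of *Epha3*, 8.76 of *Epha4* and 193 of *Epha7* (182 to 205). Its *Epha4* level lay below the highest background value, 26.4 CPM, which can come from another stage. It was not set against the background of its own stage. The cluster led by *Smpd3* and *Plac8* had the lowest *Efnb2* among the mesenchymal clusters plotted, 24.8 CPM (21.5 to 28.6).

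**Figure D4:**
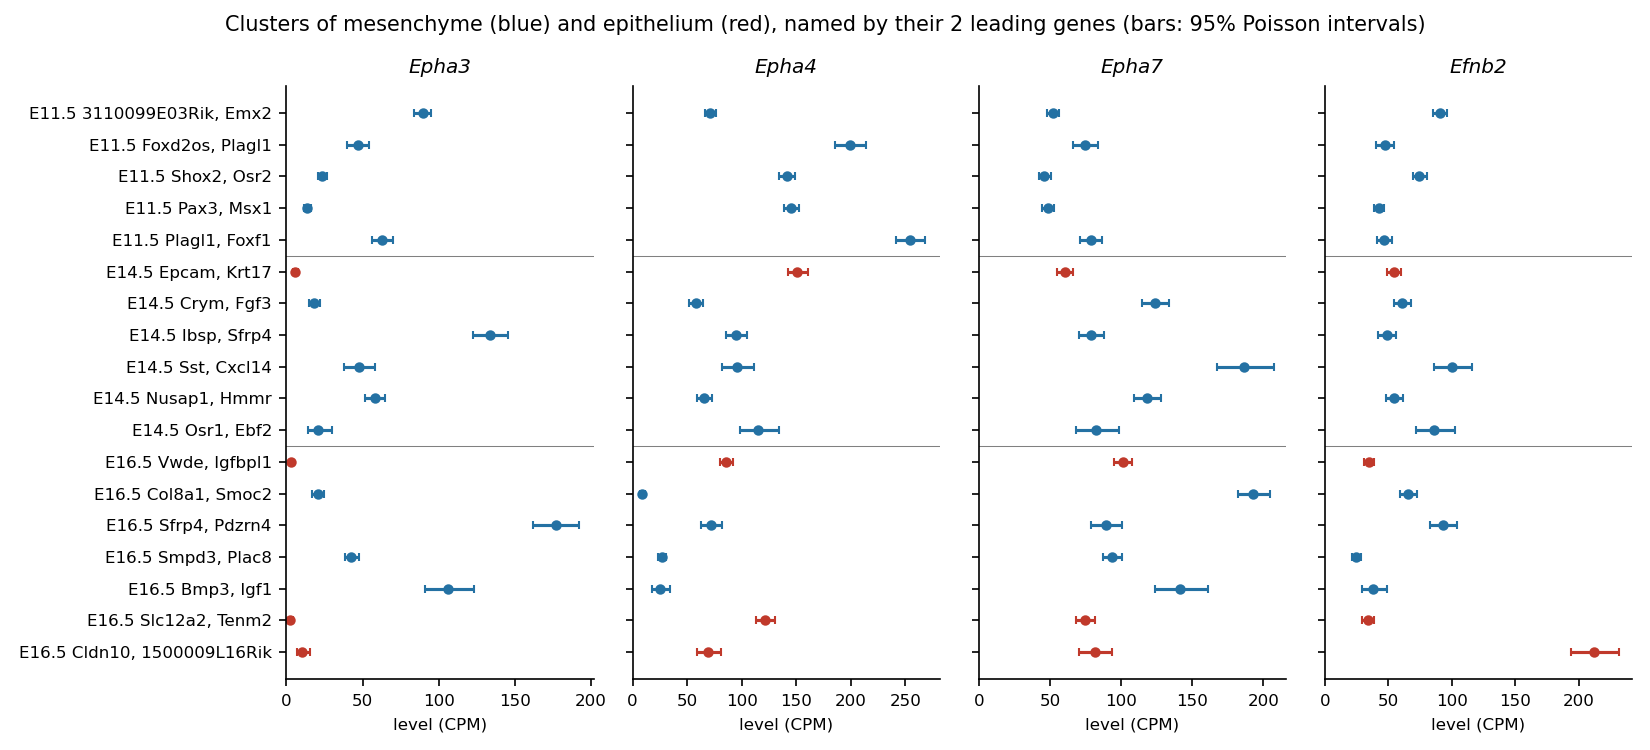
Level (CPM, linear axis from 0) of *Epha3*, *Epha4*, *Epha7* and *Efnb2* in clusters of mesenchyme (blue) and epithelium (red), each named by its stage and 2 leading genes, with 95% Poisson intervals; clusters led by globin genes and by *AY036118* or *Gm42418* are not drawn. At E16.5 *Epha3* ranges from 20.6 to 177 CPM over the mesenchymal clusters, and *Efnb2* stands at 212 CPM in the *Cldn10* epithelium.

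In the epithelium of E16.5, *Efnb2* was highest in 1 cluster. The cluster led by *Cldn10* and *1500009L16Rik* (177 cells), which has *Sox2* among its 10 leading genes, had 212 CPM of *Efnb2* (194 to 232). The endothelium of E16.5 had 194 CPM, so a level this high was not particular to endothelium. The clusters led by *Vwde* and *Igfbpl1* (839 cells) and by *Slc12a2* and *Tenm2* (570 cells) had 34.7 (31.1 to 38.6) and 33.6 CPM (29.3 to 38.4). *Efna5* had 91.7, 33.6 and 76.7 CPM in these 3 clusters, and *Epha4* 69.4, 85.8 and 121 CPM. A cluster of 179 cells led by *Gm42418* and *AY036118* with a median of 2312 UMIs had 9.76 CPM of *Epha4* and 7.81 of *Efnb2*.

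*Sox2* marks the stem cells of the incisor epithelium, the population the study followed. Epithelial cells with a *Sox2* UMI (116) had 152 CPM of *Efnb2* and those without (1311) 40.5 at E16.5 (log2 ratio 1.68, 1.51 to 1.85). *Efnb2* was the 1 member called, where 0.793% of genes were higher and 0.492% lower. *Efna5* had 98.7 and 49.3 CPM (0.88, 0.68 to 1.07). Cells with a *Sox2* UMI were deeper, with a median of 13168 against 7664 UMIs, and after thinning to 2000 UMIs, which left out 0 and 61 cells, *Efnb2* was found in 18.1% (11.6 to 26.3) of them and in 7.84% (6.41 to 9.47) of the others, and *Efna5* in 22.4% (15.2 to 31.1) and 7.36% (5.97 to 8.95). At E14.5 no member was called between 151 cells with and 432 without a *Sox2* UMI, where 0.0769% of genes were higher and 0.167% lower, and *Efnb2* had 56.8 and 51.2 CPM (0.13, -0.16 to 0.42). The intervals of the *Efnb2* ratios at E14.5 and E16.5 did not overlap, and the difference between the stages was not tested. In the paper, *Sox2* was spread over several epithelial clusters at E14.5 and lay mostly in a single cluster at E16.5. The cells with a *Sox2* UMI therefore need not be like populations at these stages.

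The same cells were then split by membership of the *Cldn10* cluster, a split chosen after these values were seen. Inside the cluster, 68 cells with a *Sox2* UMI had 255 CPM of *Efnb2* (227 to 285) and 75 without had 160 CPM (133 to 189), with intervals apart. The cells with a *Sox2* UMI were deeper, with a median of 12256 against 7655 UMIs inside the cluster and 13516 against 7673 outside it. Outside it, 48 cells with a *Sox2* UMI had 42.0 CPM (30.9 to 55.9) and the 1236 without had 33.8 CPM (30.8 to 36.9), with overlapping intervals. The 48 cells outside the cluster were thus lower in *Efnb2* than the 75 cells inside it that had no *Sox2* UMI. *Efna5* showed another arrangement, with 106 CPM (88.2 to 126) and 91.2 CPM (74.3 to 111) in cells with a *Sox2* UMI inside and outside the cluster, and 72.4 (55.1 to 93.4) and 47.9 (44.4 to 51.7) in cells without.

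**Figure D5:**
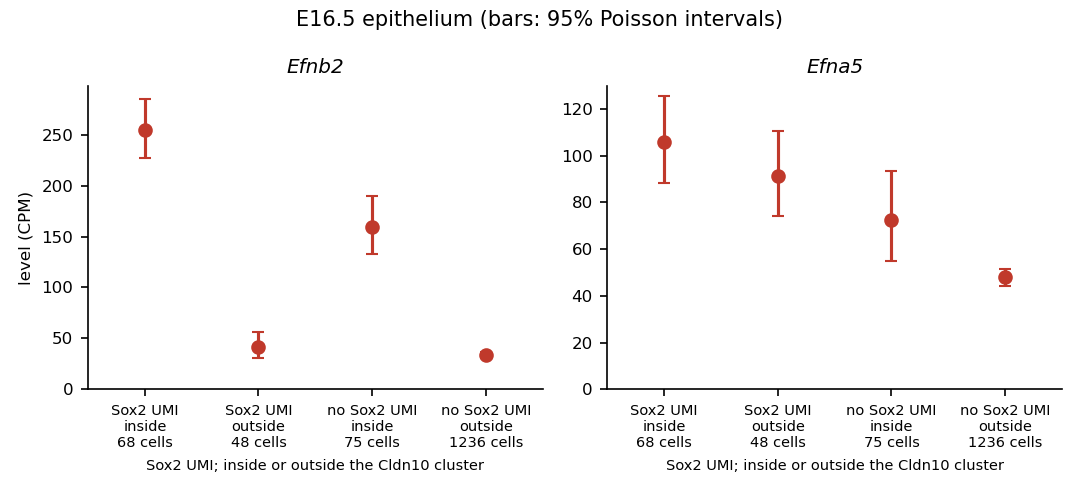
Level (CPM, linear axis from 0) of *Efnb2* and *Efna5* in epithelial cells of E16.5 with or without a *Sox2* UMI, inside or outside the *Cldn10* cluster, with 95% Poisson intervals and cell numbers. *Efnb2* is at 160 CPM or more in both groups inside the cluster and at 42.0 or less in both groups outside it.

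A split of the epithelium by marker lists of *Krt15* epithelium and tooth bud epithelium gave no member call at E14.5 (141 against 362 cells), where 1.41% of genes were higher and 2.51% lower, or at E16.5 (175 against 965 cells), where 1.69% and 1.61% were. *Efna5* had 90.4 against 52.5 CPM at E14.5 (0.68, 0.36 to 1.01) and 68.8 against 51.1 at E16.5 (0.37, 0.09 to 0.64). *Efnb2* had 29.7 against 62.2 CPM at E16.5 (-0.86, -1.22 to -0.51).

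Of the 12 other genes of the family, 9 could be tested between epithelium and mesenchyme at each of E14.5 and E16.5. At E14.5, 2 were higher and 1 lower in epithelium (3.78% and 4.24% of all genes), and at E16.5, 2 were higher and 2 lower (3.55% and 4.44%). *Epha1*, an epithelial receptor, was higher in epithelium at both stages (12.8 against 0.660 CPM, 1.1, and 16.2 against 1.76 CPM, 1.16), *Epha2* at E14.5 (27.8 against 3.24 CPM, 1.51) and *Ephb1* at E16.5 (12.4 against 0.623 CPM, 1.07). *Epha5* was lower in epithelium at both stages (-1.30 and -1.18) and *Efnb3* at E16.5 (10.3 against 39.5 CPM, -1.29). *Efna2* and *Efnb3* were lower in endothelium than in mesenchyme at all 3 stages, and *Epha5* at E14.5 and E16.5. This made 2 of 5, 3 of 7 and 3 of 7 tested, where 5.76%, 6.30% and 7.27% of all genes were lower. None of those tested was called higher. *Ephb1* at E16.5 had 25.7 against 0.623 CPM (1.75, 1.44 to 1.96), from 29 and 11 counts. *Epha2* at E11.5 had 18.3 against 0.363 CPM (1.45, 1.01 to 1.80), from 14 and 15 counts. Both passed 2-fold in favour of endothelium but had too few counts to be tested. The mesenchymal groups were far larger, so genes high in mesenchyme reached the count limit more easily. Within mesenchyme, *Epha5* at E16.5 was lower in osteogenic than in papilla cells (2.72 against 28.2 CPM, -1.59), opposite in sign to *Epha3*, as 1 of 7 tested (0.627% of all genes lower). *Epha2* at E14.5 was lower in *Krt15* than in tooth bud epithelium (9.93 against 36.2 CPM, -1.21), as 1 of 4 tested (2.51%).

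A list of 34 genes that act downstream of or beside the receptors was counted in the same comparisons. Between endothelium and mesenchyme 11 of 32 tested were higher at E11.5, 6 of 30 at E14.5 and 6 of 31 at E16.5, where 6.96%, 6.21% and 6.05% of all genes were, and 1 was lower at each stage, where 5.76%, 6.30% and 7.27% were. The list's median log2 ratios were 0.41, 0.29 and 0.49, against -0.13, -0.11 and -0.12 over all genes tested. *Fyn* and *Yes1*, kinases of the Src family, *Vav3*, a guanine exchange factor, *Sdcbp*, a PDZ protein that binds B-type ephrins, and *Adam10*, a protease that cuts ephrins, were higher at all 3 stages, and *Ptpn13*, a phosphatase that binds B-type ephrins, was lower. *Arhgef15*, an exchange factor known from EphA signalling in vessels, had 86.2 against 0.654 CPM at E11.5 (3.17) and 46.0 against 0.283 CPM at E16.5 (2.45). Also called higher in endothelium were *Rgs3*, *Rhoa*, *Rock2*, *Rac1* and *Cdc42* at E11.5 only, and *Abl2* at E14.5 only. Between epithelium and mesenchyme only *Grb7*, an adaptor protein, was higher of 31 tested at E14.5 (1.01), and at E16.5 *Grb7* (1.08) and *Adam10* (132 against 59.8 CPM, 1.02) were higher and *Rgs3*, which carries a PDZ domain in a form that binds B-type ephrins, was lower (7.27 against 41.9 CPM, -1.59) of 32. Over all genes 3.78% were higher at E14.5, and 3.55% were higher and 4.44% lower at E16.5, and the list's medians of 0.12 and 0.11 stood against 0.01 and 0.04. None of the list was called between stages in mesenchyme (31 tested at either step) or epithelium (32 tested), and none of 20 in endothelium, where the shares of all genes called higher were 2.82% and 1.23% in the mesenchymal steps, 1.20% in epithelium and 0.738% in endothelium, and those called lower 1.91%, 0.388%, 0.324% and 0.295%. Among the subsets, *Rgs3* was higher in arterial than in venous cells (1.09), as 1 of 22 tested (1.92% of all genes), and in osteogenic than in papilla cells at E14.5 (1.41), as 1 of 26 (1.57%). *Ptpn13* was higher in *Krt15* than in tooth bud epithelium at E14.5 (1.76), as 1 of 26 (1.41%).

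Genes with the most similar pattern were sought among 14411 genes over the 11 groups of lineage and stage with at least 50 cells, by Pearson's r of log2(CPM + 10). The 11 groups share matrices and their lineages set most of the spread, so the values are descriptions. *Msx1* (0.976) and *Spock3* (0.971) ranked first for *Epha3*, *Mfsd2a* (0.971) and *Six4* (0.966) for *Epha4*, and *Rab34* (0.985) and *Pakap* (0.977) for *Epha7*. Within the mesenchyme of E11.5, however, the cluster led by *Pax3* and *Msx1* had the lowest *Epha3* of the mesenchymal clusters, 13.8 CPM (11.8 to 16.1). For *Efnb2* the most similar genes were *Utrn* (0.987) and *Mrtfb* (0.982), for *Efna1* *Nav3* (0.985) and *Ica1* (0.984), for *Efna5* *Aff3* (0.990) and *Bcl11b* (0.980), for *Efnb1* *Sdc2* (0.973) and *Ly75* (0.969), for *Ephb2* *Mmp16* (0.969) and *Rnf182* (0.963), for *Ephb3* *Arnt2* (0.981) and *Zfp397* (0.977), and for *Ephb4* *Ptk2* (0.942) and *Trim37* (0.938).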

How the data were processed

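The deposited data were 3 matrices of UMI counts, 1 per stage, made by the authors from Chromium 3' libraries with Cell Ranger 4.0.0 on mm10 and not normalized. Here cells were filtered as stated, and counts were summed over the cells of a lineage and stage and scaled to CPM, with exact Poisson intervals, Clopper-Pearson intervals for shares and exact binomial intervals for ratios. Clusters came from scanpy 1.11.5 (2000 variable genes, 20 principal components, Leiden resolution 0.4), and Scrublet called 0, 0 and 2 doublets, which were kept. Values were computed with python 3.11.15, numpy 2.4.6 and scipy 1.17.1. The ratio and its interval were checked on counts simulated with counting error only, which is the error they assume, and the lineage rule on simulated cells. Spread between embryos was not simulated. The text names the 10 members, family and pathway genes past 2-fold, and the 2 genes most like each member. The members and lists were chosen with earlier results of these data known. Alternatives changed the cell filter, the lineage rule, doublets, scaling, depth, the CPM added and the count filter. One more, without clusters led by *AY036118* or *Gm42418*, was chosen after seeing the data.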

Additional observations from a re-analysis of the deposited data

Results flagged for a closer look

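*Efnb2* drew attention because its ratios had opposite signs, with intervals that excluded 0, in 2 settings where the difference itself was not tested. Osteogenic over papilla mesenchyme had a log2 ratio of -0.39 (-0.65 to -0.14) at E14.5 and of 0.21 (0.01 to 0.41) at E16.5, and the latter was -0.15 after thinning each cell to 2000 UMIs. Between E14.5 and E16.5 the log2 ratio was -0.27 (-0.38 to -0.16) in mesenchyme and 0.41 (0.10 to 0.72) in endothelium.

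The 10 cells called epithelium at E11.5 entered no comparison, but in them *Epha4* had 269.9 CPM from 41 counts (194 to 366) and *Efna5* 79 CPM from 12 counts (40.8 to 138), with intervals above those of the mesenchyme of that stage, 143 to 150 and 30.9 to 34.4 CPM.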

How the results depend on the processing

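No paired analysis was possible because no barcode can be traced to 1 of the samples of its stage, and leaving out single samples was not run for the same reason. Of 37 member ratios called, none changed sign under the 12 alternatives. They stayed past 2-fold in 33 (Leiden clusters and thinned cells), 36 (the stricter cell filter and means over cells) or 37 cases. Besides the losses named in the report, *Ephb2* in endothelium had -0.98 at E14.5 with means over cells and -0.97 at E16.5 with clusters, and *Efnb2* in endothelium at E14.5 had 0.99 with the stricter cell filter.

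Counts of called members that left 1.5 times the main count were as follows. Where not given, the cause was not tested. The counts over all genes rose as well, 33 of 34 of them with 1 CPM added (1.59 to 5.5 times). With thinned cells 14 rose (1.5 to 12.4 times). Rises in the counts below are therefore not read as a result about the members. The falls with thinned cells are not covered by this, and their cause was not tested. With 1 CPM added in place of 10, which gives low levels more weight, mesenchyme had 2 members higher and 1 lower at E14.5 over E11.5 (0 and 0 in the report) and 1 higher at E16.5 over E14.5 (0). Epithelium over mesenchyme had 2 higher at E14.5 (1) and 2 lower at E16.5 (1). The *Krt15* split at E16.5 had 1 (0) and the *Sox2* split at E16.5 had 2 (1). With cells thinned to 2000 UMIs, epithelium over mesenchyme at E14.5 had 0 higher (1) and 1 lower (2), proximal over distal mesenchyme 0 (1), the *Krt15* split at E14.5 1 (0), and the *Sox2* split and the osteogenic split at E16.5 had 2 each (1 and 1), as they did with means over cells. With 4 markers per lineage, and with median of ratios size factors, mesenchyme had 1 member higher at E14.5 over E11.5 (0), *Epha7*.

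Of 34 counts over all genes, 33 left that range with 1 CPM added (1.59 to 5.5 times the main count), 14 with thinned cells (1.5 to 12.4 times), 4 with means over cells, 4 without the filter on counts, 1 with clusters and 1 with the size factors. The depth limits *Ephb3* and the arterial values of *Ephb4*, which rest on 12 counts.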
